A study of Mus musculus with 27 samples.

Results

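The genes described are 7 Wnt ligands and 3 R-spondins, followed in the developing mouse brain. The ligands are Wnt3a, Wnt3, Wnt2b, Wnt5a, Wnt7a, Wnt7b and Wnt8b, and the R-spondins are Rspo1, Rspo2 and Rspo3. They were found by gene symbol in the read count table and are 10 of its 55416 genes. RNA-seq had been carried out on whole brains of fetuses from 3 strains, collected at d12, d15 and d17 of gestation, and each of the 9 groups held 3 libraries. AKR/J is an inbred strain and C57BL/6J another. B6.Cg-Cav1tm1Mls/J (Cav1-null) is congenic on C57BL/6J and carries a constitutive null allele of caveolin-1. Mating was within each strain, so that the genotypes of mother and fetus cannot be told apart. The mice used to establish the pregnancies were about 8 weeks old, day 1 was the day of the vaginal plug, and all 27 libraries were labelled as female fetuses. The early phase is the change from d12 to d15 and the late phase that from d15 to d17.

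Wnt proteins are lipid-modified secreted ligands. Most of them bind a Frizzled receptor together with Lrp5 or Lrp6, which stabilises beta-catenin and lets it switch on target genes with TCF/LEF factors, whereas Wnt5a is best known for signalling without beta-catenin through receptors such as Ror2. R-spondins hold off the ligases Znrf3 and Rnf43, which clear Frizzled from the cell surface, and so strengthen a Wnt response. In the embryonic brain, Wnt3a, Wnt2b, Wnt5a, Wnt8b and the R-spondins are known from the cortical hem and the medial cortex, where the hippocampus forms, and Wnt7a and Wnt7b from progenitors and young neurons, from where they also guide the growth of blood vessels into the brain.

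The libraries held 26363697 to 39759702 reads (median 29700746). Levels are given as CPM, read counts scaled to a common library size with TMM factors over all libraries, and a gene was called where its adjusted p from edgeR's quasi-likelihood test was under 0.05. Cav1 was at 0 to 0.509 CPM in the Cav1-null libraries and at 9.25 to 39.9 CPM in the others, as labelled. Genes of the sex chromosomes were at odds with the label female in 3 libraries: Cav1-null d12 replicate 2 had 14005 reads of Y chromosome genes, AKR/J d12 replicate 1 had 1229, and AKR/J d15 replicate 3 had Xist at 3.29 CPM with 0 Y chromosome reads. The calls of the 10 genes in comparisons of days or strains that use these libraries are also given without them, as are the pathway counts, the correlations with the closest genes and the junction shares. Brain markers were present in every library (all 8 on the list). The AKR/J d12 libraries also held markers of other tissues, with a summed level of 11 erythroid genes of 33200 to 198000 CPM against at most 18600 CPM in any other group, and of 13 trophoblast and decidua genes of 36.7 to 866 CPM against at most 84.3 CPM. Markers of meninges and mesenchyme (11 genes) were uneven within groups, with 5180 CPM in C57BL/6J d15 replicate 1 against 371 and 610 CPM in the other two, 1230 CPM in AKR/J d15 replicate 2 against 136 and 122 CPM, 1170 CPM in C57BL/6J d17 replicate 1 against 84.5 and 175 CPM, and 1150 CPM in Cav1-null d12 replicate 3 against 210 and 162 CPM. The labels do not tie libraries to litters, so p-values measure the spread between these libraries. In whole brain, fewer cells of a type and less RNA per cell cannot be told apart.

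Per kilobase of exon, the highest group mean of the 10 genes was that of Wnt7b in C57BL/6J on d15, with 25.4 CPM per kb, and the lowest that of Wnt3a in Cav1-null on d17, with 0.0548 CPM per kb. In AKR/J on d12, Rspo1 stood above Wnt7b (14.6 against 9.96 CPM per kb) and Wnt2b below Wnt3a (1.08 against 1.17 CPM per kb). The genes differed in how far their level moved over the 9 groups. The highest group mean was 31.9 times the lowest for Wnt3a, 23.2 times for Rspo1 and 21.6 times for Wnt8b. It was 5.76 times the lowest for Rspo3, 5.11 times for Rspo2 and 4.73 times for Wnt7b, and between 1.77 and 2.42 times for Wnt2b, Wnt3, Wnt5a and Wnt7a. The lowest mean of Wnt3a, in Cav1-null on d17, rested on 6, 0 and 8 reads, so its ratio and its place before Rspo1 and Wnt8b are limited by depth.

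**Figure D1:**
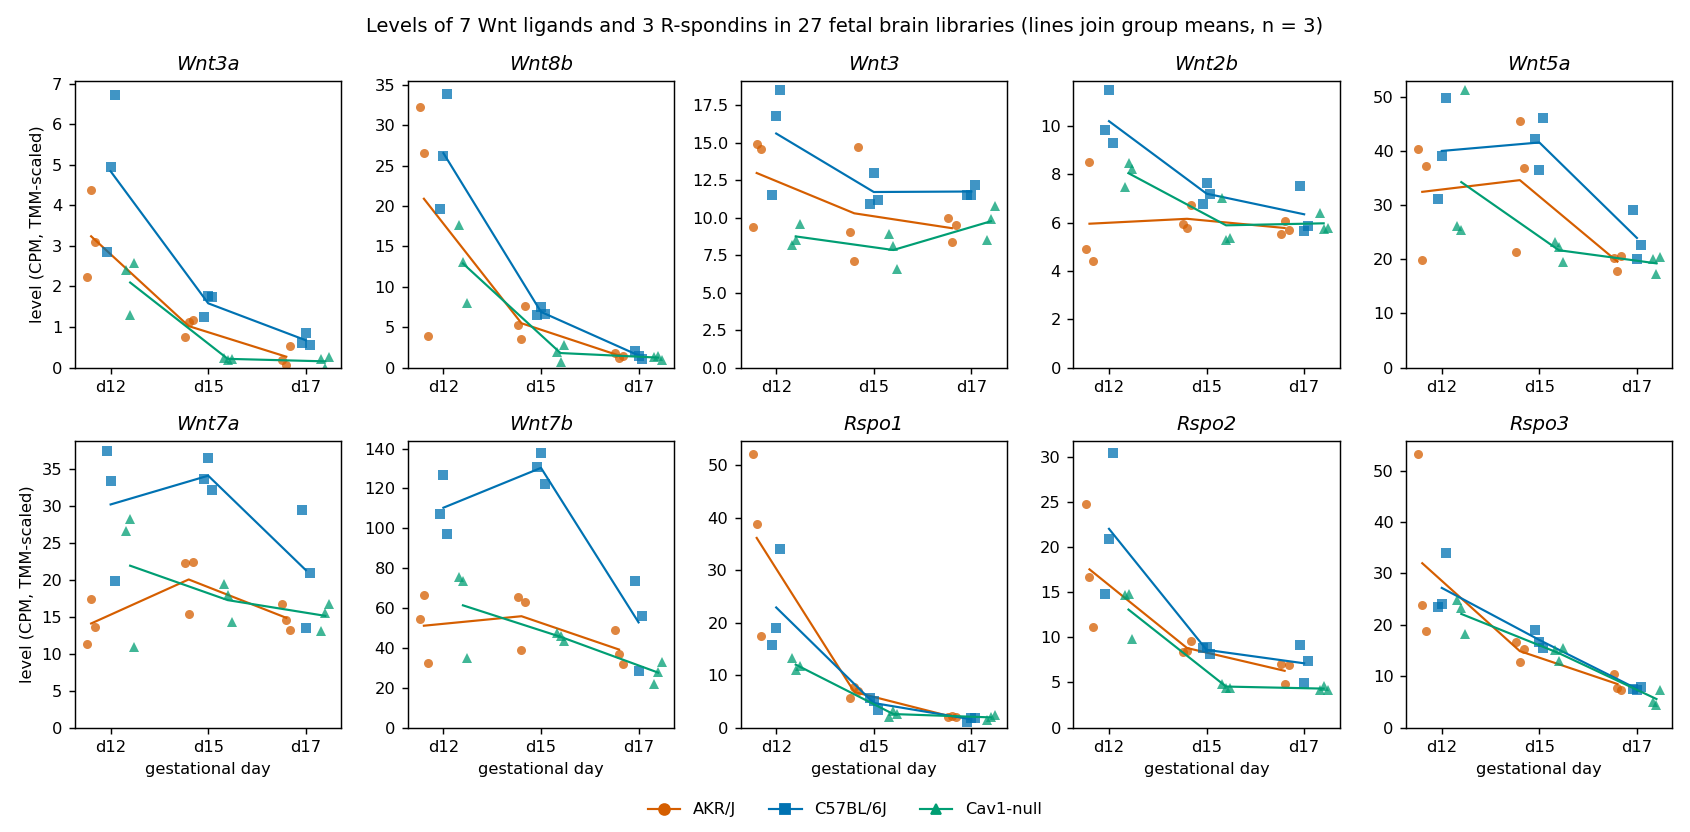
Levels of the 10 genes in CPM (TMM-scaled, linear axis from 0) by gestational day, with 1 point for each of the 27 libraries, shaped and coloured by strain, and lines that join the means of 3 libraries. Wnt3a, Wnt8b and the R-spondins had their highest group means on d12, whereas Wnt7b stood highest in C57BL/6J on d12 and d15 (131, 138 and 122 CPM on d15).

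In the early phase, the ligands Wnt3a and Wnt8b and the R-spondins had lower means on d15 than on d12 in each strain, while Wnt3, Wnt2b, Wnt5a, Wnt7a and Wnt7b were not called in any strain. In C57BL/6J, 5 of the 10 genes fell (Wnt3a, Wnt8b, Rspo1, Rspo2 and Rspo3) and none rose. Of all 19154 genes tested there, 7.8% fell. In Cav1-null the same 5 genes fell, beside 11.8% of 19934 genes. In AKR/J 3 fell (Wnt3a, Rspo1 and Rspo2), beside 14% of 19935 genes. The median log2 fold change of the 10 genes was -0.64 in C57BL/6J, -0.64 in Cav1-null and -0.71 in AKR/J, and that of all genes tested was -0.04, -0.01 and 0.02.

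Wnt3a, the hem ligand on which hippocampal growth depends, was the member with the lowest levels. On d12 it was at 2.84, 4.95 and 6.73 CPM in C57BL/6J, at 2.41, 1.29 and 2.59 CPM in Cav1-null and at 2.23, 4.38 and 3.1 CPM in AKR/J. On d15 it was at 1.24, 1.77 and 1.74 CPM in C57BL/6J, at 0.244, 0.194 and 0.203 CPM in Cav1-null and at 0.754, 1.13 and 1.18 CPM in AKR/J. In each strain all d15 libraries were below all d12 libraries. The log2 fold change was -1.66 ± 0.35 (SE; adjusted p = 0.0304, edgeR) in C57BL/6J, -3.28 ± 0.41 (adjusted p = 0.00116, edgeR) in Cav1-null and -1.71 ± 0.41 (adjusted p = 0.0171, edgeR) in AKR/J. The larger fold change in Cav1-null was not called as a difference from C57BL/6J (difference -1.64, adjusted p = 0.228, edgeR, with strain by day as the term tested in 12 libraries).

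Wnt8b, a ligand of the medial cortex and its neighbours, was at 19.6, 26.2 and 33.8 CPM on d12 and at 6.56, 7.49 and 6.6 CPM on d15 in C57BL/6J. In Cav1-null it was at 17.6, 13.1 and 7.94 CPM on d12 and at 1.92, 0.71 and 2.74 CPM on d15. The days did not overlap in either strain, and the log2 fold changes were -2.0 ± 0.22 (adjusted p = 0.0152, edgeR) and -2.84 ± 0.46 (adjusted p = 0.00348, edgeR). AKR/J had 32.2, 26.6 and 3.86 CPM on d12 and 5.31, 3.48 and 7.64 CPM on d15. There the days overlapped through AKR/J d12 replicate 3, and the fold change of -1.98 ± 0.67 was not called (adjusted p = 0.0575, edgeR). Without that library Wnt8b was called in AKR/J (-2.47, adjusted p = 0.00773, edgeR).

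Rspo1 had the largest early fold change among the R-spondins in each strain. On d12 it was at 52.1, 38.9 and 17.5 CPM in AKR/J, at 15.7, 19 and 34 CPM in C57BL/6J and at 13.2, 11 and 11.8 CPM in Cav1-null. On d15 it was at 5.59, 7.82 and 6.94 CPM, at 5.64, 5.04 and 3.33 CPM and at 2.06, 3.13 and 2.51 CPM in the same order. No d15 library reached any d12 library of its strain. The log2 fold changes lay close together, with -2.46 ± 0.38 (adjusted p = 0.00369, edgeR) in AKR/J, -2.35 ± 0.35 (adjusted p = 0.0179, edgeR) in C57BL/6J and -2.22 ± 0.21 (adjusted p = 0.00038, edgeR) in Cav1-null.

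The log2 fold change of Rspo2 was -1.04 ± 0.30 in AKR/J (adjusted p = 0.0322, edgeR), -1.41 ± 0.26 in C57BL/6J (adjusted p = 0.0242) and -1.52 ± 0.20 in Cav1-null (adjusted p = 0.0013). Its d15 levels were even within each strain, between 8.19 and 8.91 CPM in C57BL/6J, 8.39 and 9.56 CPM in AKR/J and 4.39 and 4.81 CPM in Cav1-null, and lay below the d12 libraries throughout. Rspo3 fell by 0.73 ± 0.19 in C57BL/6J (adjusted p = 0.0456, edgeR) and by 0.61 ± 0.14 in Cav1-null (adjusted p = 0.0173). In AKR/J its 53.3, 23.9 and 18.7 CPM on d12 lay above the 16.6, 12.7 and 15.3 CPM on d15, but the fold change of -1.15 ± 0.37 was not called (adjusted p = 0.0503, edgeR).

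These early calls differed in how far they rested on single libraries. Without Cav1-null d12 replicate 2, the library with Y chromosome reads, Wnt3a, Wnt8b, Rspo1 and Rspo2 were still called in Cav1-null and Rspo3 was not (log2 fold change -0.58, adjusted p = 0.0513, edgeR). Those 4 calls also held without each of the other libraries, with an adjusted p of at most 0.0249. The call of Rspo3 was kept in 1 of the 6 fits with a library left out (adjusted p up to 0.0854, edgeR). It was also lost in 1 model of all 27 libraries. In AKR/J, Rspo1 was called without any single library, Wnt3a was lost without AKR/J d15 replicate 1 or 3, and Rspo2 without AKR/J d12 replicate 1 or any d15 library. With both AKR/J libraries at odds with their label left out, 0 of the 10 genes and 885 of all genes were called by edgeR, with Rspo1 at -2.12 (adjusted p = 0.054, edgeR) and Wnt3a at -2.03 (adjusted p = 0.0748, edgeR). At an unadjusted p under 0.05, 5145 of all genes passed in that fit. In C57BL/6J, leaving out d15 replicate 1, 2 or 3 left 0 of the 10 genes called by edgeR, with 6, 0 and 2 called of all genes and 4583 to 5212 at an unadjusted p under 0.05. Several marker lists moved over the early phase with no overlap. The cortical hem and roof plate list (9 genes, none of them a member) was lower on d15 in AKR/J, from 451 to 513 CPM to 281 to 383 CPM, and in Cav1-null, from 348 to 397 CPM to 228 to 241 CPM. In C57BL/6J it overlapped, at 451 to 596 CPM and 467 to 474 CPM. The brain list was higher on d15 in AKR/J (2350 to 2600 CPM, then 3830 to 5620 CPM) and in C57BL/6J (3870 to 6330 CPM, then 6610 to 7470 CPM), as was that of choroid plexus (247 to 312 CPM, then 345 to 473 CPM, and 289 to 439 CPM, then 468 to 586 CPM). Blood vessel genes were higher in AKR/J (59.5 to 81.4 CPM, then 89.8 to 107 CPM), and cartilage genes lower in Cav1-null (a median of 161 CPM, then 46.6 to 53.6 CPM). The erythroid list was lower on d15 in every strain, most in AKR/J, where those of trophoblast and of yolk sac endoderm (28.5 to 1640 CPM, then 6.35 to 9.35 CPM) were lower as well. Their part in the early falls was not tested.

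In the late phase, Wnt8b and Rspo1 fell in AKR/J and C57BL/6J, Rspo3 fell in all strains, and Wnt5a joined them in AKR/J and C57BL/6J. In AKR/J, 4 of the 10 genes fell (Wnt5a, Wnt8b, Rspo1 and Rspo3), beside 10.4% of 19989 genes. In C57BL/6J 6 fell (Wnt3a, Wnt5a, Wnt7b, Wnt8b, Rspo1 and Rspo3), beside 5.58% of 19888 genes. In Cav1-null 2 of the 9 genes tested fell (Wnt7b and Rspo3), beside 12.8% of 20245 genes. No member rose in any strain. The medians were -0.65, -0.93 and -0.19 for the members and -0.01, 0.03 and 0.00 for all genes tested. The d15 libraries enter both phases, so the phases do not give separate evidence.

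Rspo3 fell by 0.80 ± 0.18 on the log2 scale in AKR/J (adjusted p = 0.0161, edgeR), by 1.12 ± 0.16 in C57BL/6J (adjusted p = 0.00839) and by 1.37 ± 0.17 in Cav1-null (adjusted p = 6.55e-05). On d17 it was at 10.4, 7.74 and 7.25 CPM in AKR/J, at 7.49, 7.22 and 7.84 CPM in C57BL/6J and at 4.98, 4.44 and 7.22 CPM in Cav1-null. All of these lay below the d15 libraries of their strain, the lowest of which had 12.7 CPM.

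Rspo1 fell by 1.71 ± 0.21 in AKR/J (adjusted p = 0.00166, edgeR) and by 1.52 ± 0.31 in C57BL/6J (adjusted p = 0.0237), to 2.01, 2.13 and 2 CPM and to 1.06, 1.85 and 1.77 CPM. In Cav1-null, where it had been at 2.06 to 3.13 CPM on d15, it was at 1.34, 1.97 and 2.48 CPM on d17, and the days overlapped (log2 fold change -0.41, adjusted p = 0.324, edgeR). Wnt8b likewise fell in AKR/J and C57BL/6J, with a fold change of -1.86 ± 0.33 in AKR/J (adjusted p = 0.00624, edgeR), -2.14 ± 0.27 in C57BL/6J (adjusted p = 0.00642) and -0.54 in Cav1-null (adjusted p = 0.373). By d17 the strains overlapped in Wnt8b, from 0.986 to 2.02 CPM over the 9 libraries. The difference in the late change between Cav1-null and C57BL/6J was 1.08 for Rspo1 (adjusted p = 0.176, edgeR) and 1.57 for Wnt8b (adjusted p = 0.136) and was called for neither.

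Wnt3a was down to 0.596, 0.863 and 0.558 CPM in C57BL/6J and fell by 1.17 ± 0.31 on the log2 scale (adjusted p = 0.0472, edgeR). This call was kept in 2 of 6 other settings. It was lost with library sizes alone, without the filter on low counts, in 1 model of all 27 libraries and with the replicate number as a block. In AKR/J Wnt3a was at 0.194, 0.0723 and 0.534 CPM, and the fold change of -1.89 ± 0.60 was not called (adjusted p = 0.0542, edgeR). In Cav1-null it was already at 0.194 to 0.244 CPM on d15 and at 0.201, 0 and 0.254 CPM on d17, under the filter on low counts, and was not tested. A count of 0 allows up to 3 reads in that library.

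Wnt5a was level over the early phase in C57BL/6J (log2 fold change 0.00, adjusted p = 0.99, edgeR) and fell in the late phase by 0.73 ± 0.18 (adjusted p = 0.0391), from 42.3, 36.5 and 46.1 CPM to 29.2, 20.1 and 22.6 CPM. In AKR/J it fell by 0.81 ± 0.24 (adjusted p = 0.0449, edgeR), from 21.4, 45.6 and 37 CPM to 20.2, 17.9 and 20.7 CPM. The highest of these d15 values belonged to AKR/J d15 replicate 2, the library with 1230 CPM of meningeal and mesenchymal markers, and without it the fold change was -0.55 (adjusted p = 0.0738, edgeR). Likewise the 51.3 CPM of Cav1-null d12 replicate 3, against 26.2 and 25.4 CPM in the other two, went with 1150 CPM of these markers. In C57BL/6J on d15 the library with 5180 CPM of the markers had 42.3 CPM of Wnt5a, between the other two. The part of mesenchyme in the Wnt5a values was not tested.

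Wnt7b, a ligand that drives vessel growth and barrier formation in the brain together with Wnt7a, fell in the late phase in C57BL/6J, from 131, 138 and 122 CPM to 73.6, 28.6 and 56.1 CPM (-1.23 ± 0.32, adjusted p = 0.0433, edgeR). It fell in Cav1-null as well, from 47.3, 45.8 and 43.5 CPM to 21.9, 27.8 and 33 CPM (-0.72 ± 0.12, adjusted p = 0.000744). In AKR/J the days overlapped and the fold change of -0.50 was not called (adjusted p = 0.131, edgeR). Wnt7a was not called in the late phase, with log2 fold changes of -0.42, -0.61 and -0.19 in AKR/J, C57BL/6J and Cav1-null. Wnt3 and Wnt2b stayed between -0.12 and 0.32.

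Marker lists moved with the late falls too. In C57BL/6J the cortical hem and roof plate genes summed to 467 to 474 CPM on d15 and to 332, 216 and 277 CPM on d17, with no overlap, and 6 blood vessel genes to 276, 202 and 264 CPM and to 243, 72 and 112 CPM, which overlapped. Replicate 2 of d17 was lowest in both lists and in Wnt7b. Cartilage genes were lower on d17 there (103 to 575 CPM, then 24.4 to 41.9 CPM) and erythroid genes higher (824 to 1070 CPM, then 2360 to 2920 CPM). In AKR/J the lists of cortical hem and roof plate (281 to 383 CPM, then 218 to 241 CPM), blood vessel (89.8 to 107 CPM, then 58.4 to 78.2 CPM), cartilage (76.7 to 256 CPM, then 24.6 to 33.6 CPM) and meninges and mesenchyme (122 to 1230 CPM, then 70.3 to 117 CPM) were lower with no overlap. Choroid plexus (345 to 473 CPM, then 544 to 583 CPM) and erythroid genes (2010 to 3070 CPM, then 3460 to 18600 CPM) were higher. In Cav1-null the hem and vessel lists overlapped between the days. Choroid plexus (416 to 525 CPM, then 352 to 405 CPM), cartilage (46.6 to 53.6 CPM, then 21.7 to 26.5 CPM) and erythroid genes (2910 to 3620 CPM, then 570 to 2580 CPM) were lower there with no overlap, and brain markers higher (5080 to 5250 CPM, then 5300 to 5500 CPM). Lists that stayed at or under 19.7 CPM in the groups compared are left out. Their part in the late falls was not tested.

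Of the late calls, both in Cav1-null and those of Rspo1 and Wnt8b in AKR/J held without any single library. Wnt5a and Rspo3 in AKR/J did not, and without AKR/J d15 replicate 3, whose Xist level was at odds with the label, Wnt5a had -0.77 (adjusted p = 0.0909, edgeR) and Rspo3 -0.79 (adjusted p = 0.0364). In C57BL/6J, 0 of the 10 genes and 160 of all genes were called by edgeR without d17 replicate 3 (4709 at an unadjusted p under 0.05). Without d15 replicate 1, 2 or 3 the number called was 2, 1 or 3 of the 10 and 363, 267 or 781 of all genes. Without d17 replicate 1, the library with 1170 CPM of mesenchymal markers, it was 7 of the 10 and 6990 of all genes, against 2594 of all genes with every library. Wnt3a, Wnt5a and Wnt7b were each lost without 4 of the 6 libraries, and Wnt8b without d17 replicate 3 alone.

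**Figure D2:**
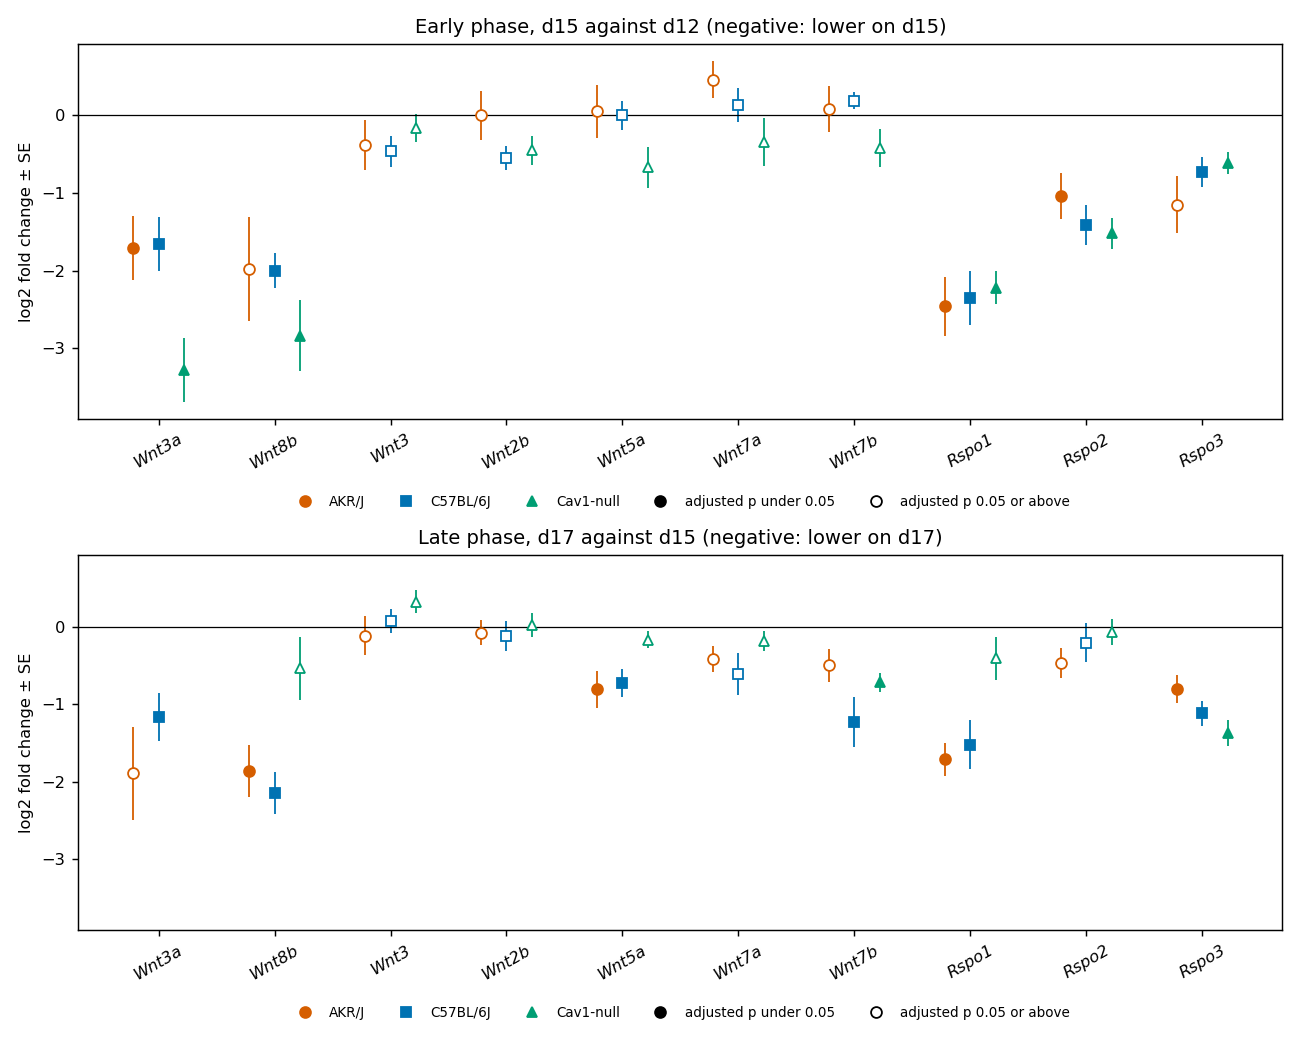
Log2 fold change ± SE of the 10 genes in the early phase (upper panel) and late phase (lower panel), by strain, with 6 libraries behind each value. Filled symbols have an adjusted p under 0.05 and all lie below 0, between -0.61 and -3.28 in the early and between -0.72 and -2.14 in the late phase.

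Set against C57BL/6J on the same day, AKR/J brains had less Wnt7a and Wnt7b on d12 and d15. On each of these days 2 of the 10 genes were called and both were lower, beside 14.1% of 19320 genes lower on d12 and 22.3% of 19692 genes on d15, so that the count was near the background on both days. On d17 edgeR called 0 of the 10 genes in AKR/J, of which 0 had an unadjusted p under 0.05, and 0.742% of 20207 genes were called in either direction. The median log2 fold change of the members was -0.19, -0.17 and -0.25 on the 3 days, and that of all genes 0.02, 0.06 and -0.04.

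On d15, Wnt7b was at 65.6, 38.9 and 63.1 CPM in AKR/J against 131, 138 and 122 CPM in C57BL/6J (-1.16 ± 0.17, adjusted p = 0.00165, edgeR). Wnt7a was at 22.3, 15.4 and 22.5 CPM against 33.7, 36.5 and 32.2 CPM (-0.70 ± 0.14, adjusted p = 0.00582). The strains did not overlap in either gene, and both calls held without any single library, AKR/J d15 replicate 3 included (adjusted p = 0.00436 for Wnt7b and 0.0105 for Wnt7a, edgeR). Marker lists moved with this difference: 6 blood vessel genes summed to 89.8 to 107 CPM in AKR/J against 202 to 276 CPM in C57BL/6J, the cortical hem and roof plate genes to 281 to 383 CPM against 467 to 474 CPM, and the brain markers to 3830 to 5620 CPM against 6610 to 7470 CPM. The erythroid genes were higher in AKR/J, with 2010 to 3070 CPM against 824 to 1070 CPM. Their part in the Wnt7 difference was not tested. On d12 the AKR/J libraries had 54.6, 66.3 and 32.4 CPM of Wnt7b against 107, 127 and 97 CPM, and 11.3, 17.4 and 13.6 CPM of Wnt7a against 37.5, 33.4 and 19.8 CPM, again with no overlap. The fold changes were -0.97 ± 0.27 (adjusted p = 0.0301, edgeR) and -0.96 ± 0.29 (adjusted p = 0.0399). Both d12 calls were lost without AKR/J d12 replicate 1 (adjusted p = 0.0819 and 0.127, edgeR), which had Y chromosome reads and the highest trophoblast level, and without AKR/J d12 replicate 3 or C57BL/6J d12 replicate 1 or 2. The summed brain markers were also lower in these AKR/J libraries, at 2350 to 2600 CPM against 3870 to 6330 CPM in C57BL/6J on d12, as were the blood vessel genes, at 59.5 to 81.4 CPM against 125 to 266 CPM. Erythroid, yolk sac and surface ectoderm genes were higher with no overlap, and the part of other tissue in the d12 difference was not tested. On d17, C57BL/6J replicate 2 stood lowest of its group in Wnt7a and Wnt7b (13.5 and 28.6 CPM). Without it, Wnt7a (-0.76, adjusted p = 0.0177, edgeR) and Wnt7b (-0.73, adjusted p = 0.0259) were called in AKR/J, and 5478 of all genes were called in place of 150.

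Rspo1 was the only member that was higher in the mean of AKR/J than of C57BL/6J on all 3 days, with log2 fold changes of 0.80, 0.61 and 0.38, of which none was called (adjusted p = 0.18, 0.0885 and 0.45, edgeR).

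Cav1-null brains differed from C57BL/6J in these genes on d15. There 8 of the 10 were lower and called, Rspo3 and Wnt2b were not, and none was higher. The background was high, since 31.8% of 19827 genes were lower and 58.6% were called in either direction. The median of the members was -0.89 and that of all genes 0.03. The fold changes were -2.83 ± 0.35 for Wnt3a (adjusted p = 5.43e-05, edgeR), -1.90 ± 0.37 for Wnt8b (0.00124), -1.48 ± 0.06 for Wnt7b (4.45e-08) and -0.94 ± 0.12 for Wnt7a (5.67e-05). Wnt5a had -0.90, Rspo2 -0.88, Rspo1 -0.83 and Wnt3 -0.54, with adjusted p between 4.25e-05 and 0.0165. Wnt7b showed the pattern most clearly, with 47.3, 45.8 and 43.5 CPM in Cav1-null and no C57BL/6J library under 122 CPM. Wnt5a, at 23.3, 22.3 and 19.5 CPM, also lay below all 3 C57BL/6J libraries, the lowest of which had 36.5 CPM.

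The 3 C57BL/6J d15 libraries were the deepest of the study, at 37191332 to 39759702 reads against 26846313 to 29090743 in Cav1-null d15, and they serve as the controls of both strains and in both C57BL/6J phases. Without C57BL/6J d15 replicate 1, which held the most mesenchymal markers, 7 of the 10 genes were called, and Rspo1 was not (-0.66, adjusted p = 0.0527, edgeR). The calls other than that of Rspo1 held without any single library. Marker lists also differed between these groups with no overlap. The 9 genes of the cortical hem and roof plate summed to 228 to 241 CPM in Cav1-null against 467 to 474 CPM, the blood vessel genes to 59.3 to 73.8 CPM against 202 to 276 CPM, and the brain markers to 5080 to 5250 CPM against 6610 to 7470 CPM. The markers of meninges and mesenchyme summed to 81.7, 167 and 114 CPM in Cav1-null against 5180, 371 and 610 CPM, and those of cartilage to 46.6 to 53.6 CPM against 103 to 575 CPM. The erythroid genes went the other way, with 2910 to 3620 CPM against 824 to 1070 CPM. Their part in the members' difference was not tested.

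On d12 edgeR called 0% of the 19475 genes tested between Cav1-null and C57BL/6J. Cav1 itself, at 0 to 0.212 CPM against 10.3 to 19 CPM, was thus not called. The 0 therefore does not show that the strains were alike on d12. All 10 genes were lower in the mean, from -0.20 for Wnt5a to -1.18 for Wnt3a, and 6 of them had an unadjusted p under 0.05, as did 4309 of all genes. DESeq2 called 5 of the 10 on d12, all lower, and 1756 of 34644 genes with reads. Without the filter on low counts edgeR called 0 of the 10 and 750 of 34644 genes. In 1 model of all 27 libraries it called 1 of the 10 and 1734 of 23307 genes. The cortical hem and roof plate genes (348 to 397 CPM against 451 to 596 CPM) and the blood vessel genes (73.2 to 118 CPM against 125 to 266 CPM) were lower in these libraries too, and their part was not tested. Without Cav1-null d12 replicate 2, edgeR again called 0 of the 10 and 0 of all genes, with 2876 at an unadjusted p under 0.05. On d17 edgeR called 0 of the 10 in Cav1-null, with 3 at an unadjusted p under 0.05, and 0.0491% of 20358 genes in either direction. The d17 fold changes ranged from -2.10 for Wnt3a to 0.31 for Rspo1. Without C57BL/6J d17 replicate 2, Wnt7a (-0.75), Wnt7b (-1.24) and Rspo2 (-0.94) were called, with adjusted p between 0.0243 and 0.0346 by edgeR, and 2865 of all genes in place of 10.

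**Figure D3:**
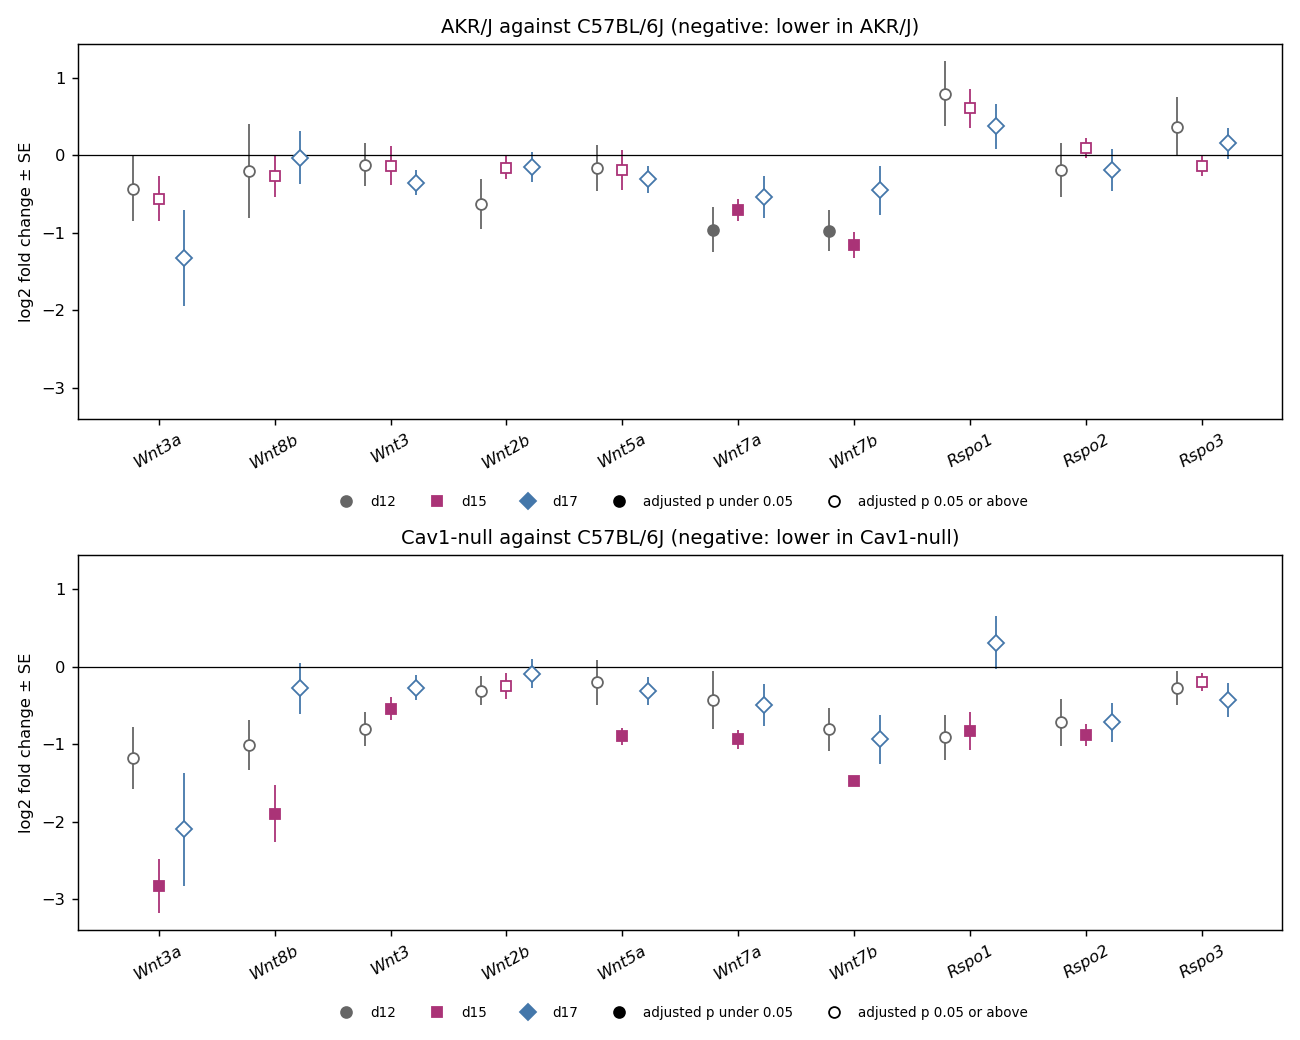
Log2 fold change ± SE of the 10 genes in AKR/J (upper panel) and Cav1-null (lower panel) against C57BL/6J on each day, with 6 libraries behind each value and filled symbols for an adjusted p under 0.05. In AKR/J the filled symbols belong to Wnt7a and Wnt7b on d12 and d15, and in Cav1-null to 8 genes on d15, all below 0.

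Whether the change over a phase itself differed between strains was tested with strain by day as a term in 12 libraries. Of the 10 genes, edgeR called 0 in each of the 4 such tests, where 0.0711% (early, AKR/J), 0.00472% (early, Cav1-null), 0.00468% (late, AKR/J) and 0.252% (late, Cav1-null) of all genes were called. The members at an unadjusted p under 0.05 numbered 0, 1, 0 and 3, beside 3432 of 21090, 3181 of 21191, 1617 of 21373 and 4683 of 21431 genes, which is near or below the background. DESeq2 called 0, 0, 0 and 1, the last being Wnt8b, beside 947 of 38990, 428 of 37686, 41 of 38720 and 1294 of 38662 genes with reads. Without C57BL/6J d17 replicate 1, which held the mesenchymal markers given above, edgeR called Wnt5a (0.79), Wnt7a (0.80), Wnt7b (0.90) and Wnt8b (1.94) in the late test of Cav1-null, all with the smaller fall in Cav1-null, among 5792 of all genes. Without AKR/J d12 replicate 2 it called Wnt2b (0.83, adjusted p = 0.0448) in the early test of AKR/J, among 3251 of all genes, so that 1 of the 10 was near the background. Without any 1 of the 3 libraries at odds with their sex label it called 0 of the 10.

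Across the 27 libraries, the genes whose log2(CPM + 1) followed a member most closely differed between members. Rspo1 went most closely with Hmga2, a chromatin protein of early progenitors (Pearson's r = 0.977), and with Lbr (r = 0.972). Rspo2 went with Wnt8b (r = 0.928), Rspo3 with the cell cycle genes Ube2c (r = 0.951) and Cdk4 (r = 0.949), and Wnt8b with Pola2, a subunit of DNA polymerase alpha (r = 0.954). Wnt7b went with Sema4c (r = 0.96) and Scrt2 (r = 0.959), Wnt7a with Islr2 (r = 0.948) and Wnt5a with Sulf1 (r = 0.935) and the endothelin receptor gene Ednra (r = 0.913). Wnt3a had Mib1 (r = 0.947), a ligase needed for Notch ligands, whereas Wnt3 (Plk3, r = 0.852) and Wnt2b (Dpf2, r = 0.855) had no partner as close. Over the 24 libraries left without those at odds with their sex label, the same correlations ranged from 0.852 (Wnt2b with Dpf2) to 0.975 (Rspo1 with Hmga2). Each value is among the 3 highest of 16446 genes, and the libraries share strains, days and depth, so these are descriptions of the 27 libraries.

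With the group means removed, Wnt7a and Wnt7b still went together (r = 0.82 over 27 libraries, 0.90 without AKR/J d12). Wnt8b went with Rspo2 (r = 0.71, and 0.60 without AKR/J d12), and Wnt5a ran opposite to Wnt7a (r = -0.54, and -0.50 without AKR/J d12). C57BL/6J d17 replicate 2 was low in both Wnt7 genes and Cav1-null d12 replicate 3 was low in both and high in Wnt5a (51.3 CPM).

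The receptors and downstream genes of the pathway, 61 genes in 6 lists, were read beside the ligands. In the early phase 4 rose and 8 fell of 59 tested in AKR/J, 3 rose and 5 fell in C57BL/6J, and 2 rose and 26 fell in Cav1-null, beside 14%, 7.8% and 11.8% of all genes that fell, so that the AKR/J and C57BL/6J counts were near the background. Of all genes 14.8%, 7.08% and 11.6% rose there. In the late phase the counts were 1 and 25, 1 and 16, and 8 and 11 in the same order, beside 10.4%, 5.58% and 12.8% of all genes that fell and 11.6%, 7.46% and 14.5% that rose, so that the 8 that rose in Cav1-null were near the background. In Cav1-null against C57BL/6J on d15, 1 was higher and 50 were lower, with a median of -1.22 beside 0.03 for all genes, of which 31.8% were lower and 26.8% higher. In AKR/J against C57BL/6J on d15, 2 were higher and 27 lower, with a median of -0.61, beside 22.3% of all genes lower and 18.8% higher. Without the libraries at odds with their sex label, 0 rose and 2 fell early in AKR/J (Fzd10 and Ccnd1, of 60 tested, with 11 at an unadjusted p under 0.05), 2 rose and 27 fell early in Cav1-null, 2 rose and 21 fell late in AKR/J, and 0 were higher and 30 lower in AKR/J against C57BL/6J on d15. Of all genes tested in these fits, 1.33%, 8.71%, 7.93% and 22% were lower in the same order.

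Frizzled receptors and co-receptors fell in the late phase, 12 of 18 in AKR/J, 6 of 18 in C57BL/6J and 5 of 18 for Cav1-null, with none higher, where 10.4%, 5.58% and 12.8% of all genes fell. Without AKR/J d15 replicate 3, 9 of 18 fell late in AKR/J. Cav1-null had more falls in the early phase, with 9 of 18 lower beside 11.8% of all genes. Without Cav1-null d12 replicate 2 this early count was 13 of 18, beside 8.71% of all genes. The other strains had fewer early falls, 3 of 18 (AKR/J) and 1 of 18 (C57BL/6J), where 14% and 7.8% of all genes fell. Fzd2 fell in 5 of the 6 day comparisons, by 1.95 ± 0.37 in the late phase of C57BL/6J (adjusted p = 0.0196, edgeR), and Fzd10 fell in all 3 early phases, by 2.09 ± 0.24 in Cav1-null (adjusted p = 0.000801). Among the R-spondin receptors and their ligases, Lgr4 fell early in AKR/J (-0.79 ± 0.24, adjusted p = 0.0428, edgeR), a call that was lost without the libraries at odds with their sex label (-0.90, adjusted p = 0.162, edgeR). Lgr4, Znrf3 and Lgr6 rose in the late phase of Cav1-null by 0.33, 0.36 and 1.10, while Lgr5 and Rnf43 were not called in any day comparison. Wls, which carries Wnt proteins to the cell surface, fell in 4 of the 6 day comparisons, by 1.29 ± 0.24 early in AKR/J (adjusted p = 0.00722, edgeR). Without the same libraries Wls was not called there (-1.37, adjusted p = 0.0731, edgeR), nor was Fzd2 (-0.72, adjusted p = 0.147). Notum, which strips the lipid from Wnt proteins, rose in the late phase of AKR/J (1.98 ± 0.44, adjusted p = 0.0152) and C57BL/6J (1.72 ± 0.45, adjusted p = 0.0459) from a low level, with a mean of 0.783 CPM over all libraries.

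Among secreted inhibitors, Sfrp1 fell in 4 day comparisons, from -0.71 to -1.54, and Dkk3 fell in the early phase of Cav1-null (-1.05) but rose early in AKR/J (1.08) and late in Cav1-null (1.02). Ctnnb1, which encodes beta-catenin, fell by 0.75 ± 0.11 in the early phase of Cav1-null (adjusted p = 0.00252, edgeR) and by 0.80 ± 0.15 in the late phase of AKR/J (adjusted p = 0.00743). Apc, part of the complex that degrades beta-catenin, rose in all 3 early phases, by 1.23, 0.55 and 0.29 in AKR/J, C57BL/6J and Cav1-null. Without the libraries at odds with their sex label, edgeR called neither Apc (1.06, adjusted p = 0.121 in AKR/J, and 0.31, adjusted p = 0.0537 in Cav1-null) nor the early rises of Dkk3 (1.32, adjusted p = 0.117) and Myc (1.00, adjusted p = 0.168) in AKR/J. Tcf7l1, a TCF factor that mostly represses, fell in 3 comparisons and was the lowest of the named genes in Cav1-null against C57BL/6J on d15 (-2.97 ± 0.17, adjusted p = 2.34e-07). Of 8 genes that beta-catenin is known to induce, all 8 were lower in Cav1-null on d15, where 31.8% of all genes were lower. Ccnd1 and Nkd1 fell in 5 of the 6 day comparisons each, whereas Myc rose in 2 and Sp5 was called in none.

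**Figure D4:**
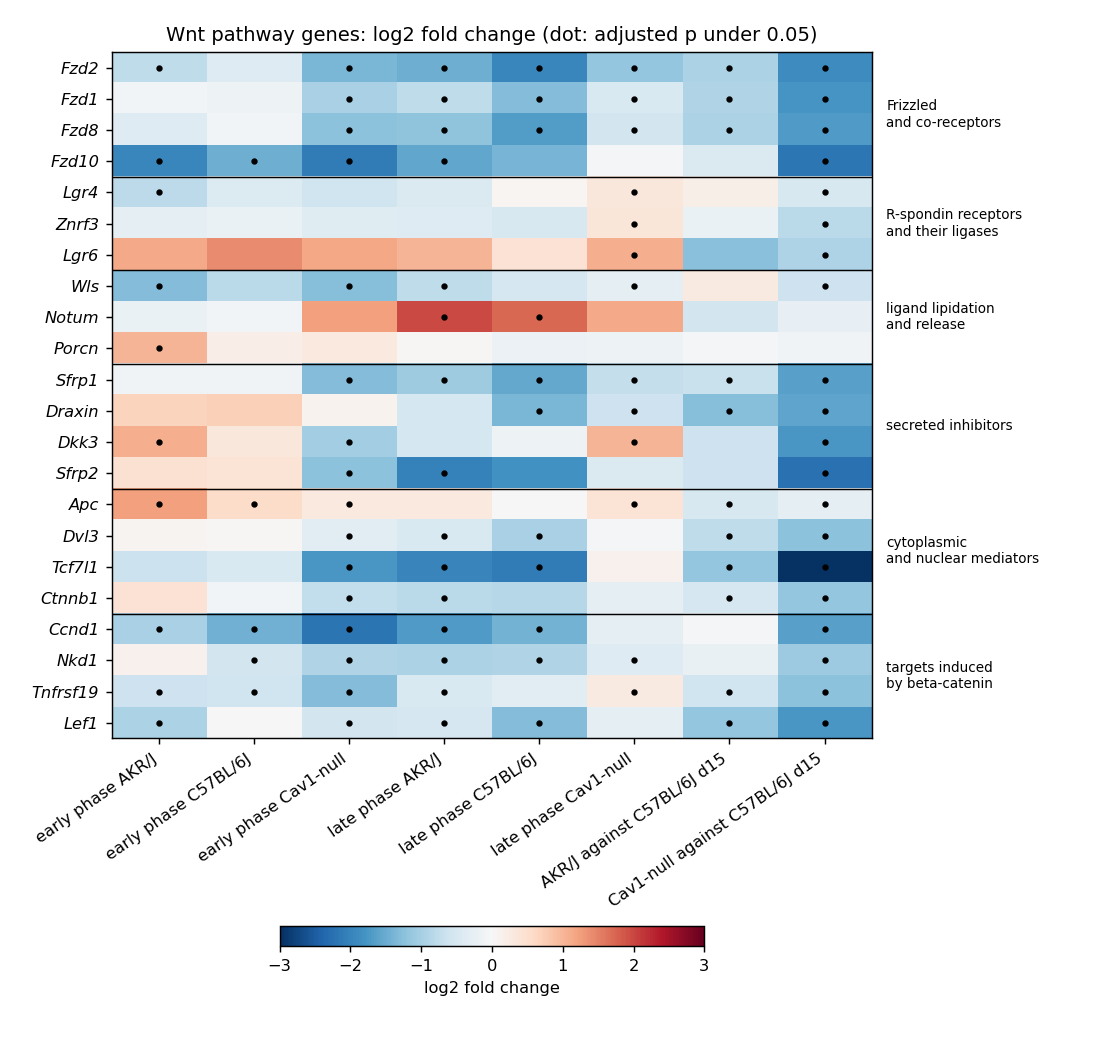
Log2 fold change (colour, from -3 to 3) of the Wnt pathway genes named by rule, grouped by role, in the 6 day comparisons and in AKR/J and Cav1-null against C57BL/6J on d15. A dot marks an adjusted p under 0.05, and every gene shown except Notum and Porcn has one in the Cav1-null column on the right.

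Of the other 12 Wnt genes, 7 to 10 passed the filter in each comparison between days or strains. In the early phase 4 (AKR/J), 1 (C57BL/6J) and 2 (Cav1-null) fell, and Wnt5b was among them in all 3 strains (-0.94, -0.81 and -1.22). Of all genes tested, 14%, 7.8% and 11.8% fell there, so that the count in C57BL/6J was near the background. Without the libraries at odds with their sex label, 0 of the 10 other Wnt genes tested were called by edgeR early in AKR/J (4 at an unadjusted p under 0.05), Wnt5b included (-1.03, adjusted p = 0.168), and 2 in Cav1-null. Wnt1 fell in the late phase of AKR/J (-3.19 ± 0.48, adjusted p = 0.0033, edgeR), and Wnt4 rose in the late phase of Cav1-null (0.66 ± 0.16, adjusted p = 0.00863). Rspo4 stayed at 0 to 0.472 CPM and passed the filter in none of the comparisons between days or strains. Wnt2 (chr6:17985468-18031892) and Wnt16 (chr6:22288221-22298521, GRCm39) lie on the chromosome of Cav1, as do the member Wnt7a and, among other listed genes, Wnt5b and Tcf7l1. Wnt2 and Wnt16 were at 0 to 1.81 CPM and 0.126 to 1.31 CPM. They were too low to be tested in each comparison of Cav1-null with C57BL/6J, and neither was called in those where it was tested.

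Reads over splice junctions allowed transcripts of 3 members to be told apart, and the donor sites are shown because the junctions differ by them. The windows below hold 21 bases of GRCm39 from 5′ to 3′ on the gene's strand (9 of exon and 12 of intron), and the capitals mark the first intron bases. Rspo2 (chr15:42877439-43034706, minus strand) has 2 donors that join the same acceptor at the end of intron 1, outside the coding range, and give introns of 118 and 376 bases. Wnt7b (chr15:85419638-85466674, minus strand) has 2 first exons, each with its own donor, which join the same exon 2, and both introns lie within the coding range.
Rspo2 nearer donor, chr15:43033498-43033518: atcgtgccaGTgagttcgcgt
Rspo2 farther donor, chr15:43033756-43033776: gagcgcacgGTaggcgatcta
Wnt7b nearer first exon, chr15:85461697-85461717: cagttacctGTgagtgccgcg
Wnt7b farther first exon, chr15:85465569-85465589: gaagctcggGTgagtatttct

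The nearer donor of Rspo2 was read in C57BL/6J and Cav1-null but not in AKR/J. It had 0 of 107 reads over the 2 junctions in the 9 AKR/J libraries, for which the exact 95% interval reaches up to 3.39%. In C57BL/6J it had 30 of 130 reads (23.1%, exact 95% interval 16.1 to 31.3%) and in Cav1-null 22 of 83 (26.5%, 17.4 to 37.3%). The mean share per library was 0.0% in AKR/J and 23.4 ± 14.2% in C57BL/6J (SD, n = 9 each; two-sided exact permutation p = 0.000411, adjusted over 12 such tests 0.00494). Within days the permutation gave an adjusted p of 0.012, and without the AKR/J libraries at odds with their sex label the adjusted p was 0.0168. All 9 AKR/J libraries were at 0%, as were C57BL/6J d17 replicate 2 with 0 of 8 reads and Cav1-null d15 replicate 3 with 0 of 4. The authors removed junctions with few reads, reads that mapped to several places and short overhangs, so a 0 can stand for removed reads, and the AKR/J sequence at this donor was not analysed here. The filter on few reads was applied over all samples. The nearer junction was therefore kept through reads of the other strains, the most being 11 in C57BL/6J d12 replicate 3. The permutation tests between AKR/J and C57BL/6J do not allow for this selection. Rspo2 as a gene was not called between AKR/J and C57BL/6J on any day (log2 fold changes -0.19, 0.10 and -0.19, adjusted p of 0.573 or more).

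The share of Wnt7b reads from the nearer first exon was higher on d15 than on d12. It was 13.3 ± 7.61% over the 9 d12 libraries and 23.7 ± 5.39% over the 9 d15 libraries (two-sided exact permutation p = 0.00424, adjusted 0.0254). Permuted within strains the adjusted p was 0.0255. Without the 3 libraries at odds with their sex label the difference was 10.3 points in place of 10.4 and was not called (n = 8 and 7, exact permutation p = 0.0193, adjusted 0.116). On d17 it was 29.2 ± 9.92%, and the step from d15 was not called (adjusted p = 0.528, exact permutation). Pooled over libraries the nearer exon had 47 of 393 reads in C57BL/6J on d12 (12.0%), 112 of 562 on d15 (19.9%) and 69 of 226 on d17 (30.5%). Cav1-null had 14.4, 25.5 and 30.2%, and AKR/J 18.2, 23.2 and 22.4%. Over all days the share did not differ between strains beyond its spread (differences of -0.253 and 2.34 points from C57BL/6J, adjusted p = 0.963 and 0.93, exact permutation). Wnt5a also had 2 junctions with a shared acceptor, and 0 of its 4 contrasts were called by the exact permutation test at an adjusted or unadjusted p under 0.05. Intervals and limits of counts cover counting error only.

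**Figure D5:**
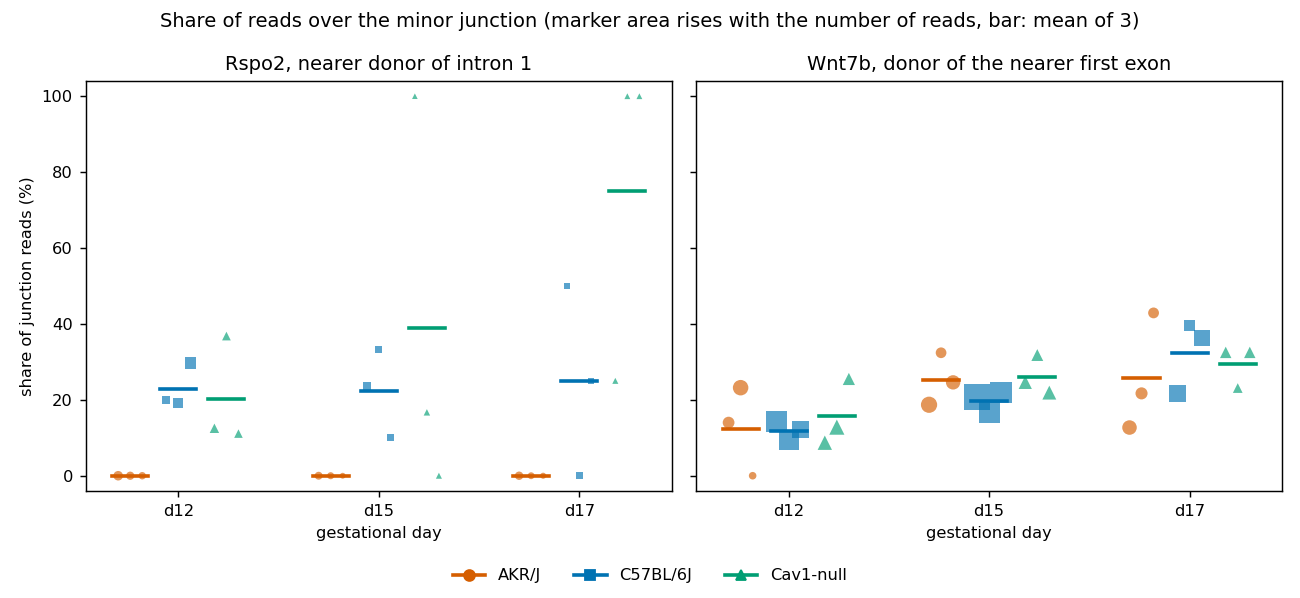
Share of reads over the less used of 2 junctions in Rspo2 and Wnt7b, in percent, with 1 marker per library (area rising with its reads) and a bar at the mean of 3 libraries. All AKR/J libraries lie at 0% for Rspo2, the Rspo2 shares at 100% rest on 2 or 3 reads, and the Wnt7b shares have a higher mean on d15 (23.7%) than on d12 (13.3%).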

How the data were processed

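The authors aligned trimmed reads to GRCm39 with STAR and deposited raw read counts per gene, and in another file read counts per splice junction, from which junctions and reads had been filtered. The counting tool and its strand setting are not given in the sources used here. Counts of 1 to 10 were even in 60.6% of cases, against 50.2% of counts of 200 to 2000. Antisense genes overlap 1.06 to 9.55% of the exon bases of Wnt5a, Wnt7a, Wnt7b, Wnt2b and Rspo3, and without strand their reads cannot be told apart.

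Here, edgeR 4.0.16 (filterByExpr, TMM, quasi-likelihood) was fitted to the 6 libraries of each comparison, or 12 for strain by day, with p-values adjusted by Benjamini-Hochberg over all genes tested and called under 0.05. The SE is the log2 fold change divided by the root of its F. Likeness used log2(CPM + 1), with a pseudocount of 1, in genes with a mean of at least 1 CPM. Junction shares were compared by exact permutation over libraries where the group had at least 10 reads. Alternatives were DESeq2 1.42.0, RLE factors, library sizes alone, no filter, 1 model of 27 libraries, a replicate block and single libraries left out. Further alternatives were chosen after seeing the data. These were leaving out the libraries at odds with their sex label together (early AKR/J, correlations and junctions), leaving them out of the counts and fold changes of the pathway and other Wnt genes, and permuting within strain or day. Scripts were tested on simulated data. Libraries of a group differed beyond sampling noise (chi-square per gene at least 5.53). The labels do not say that replicate numbers pair the libraries. Same-numbered deviations correlated from -0.5 to 0.43, with no differently numbered pairs set beside them, so pairing by number was not tested.

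All members were named, with at most 4 genes of each pathway list by the number of day comparisons called in 1 direction, and the closest 3 genes of each member by r. Other genes of the lists were counted, except Rnf43, Lgr5, Myc, Sp5, Wnt1, Wnt4 and Wnt5b, which were named after their values were seen. The members, lists and tests were chosen with earlier results of these data known. Coordinates are from GENCODE vM39. The RefSeq table of promoters held 6 of the 10 genes.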

Additional observations from a re-analysis of the deposited data

Results flagged for a closer look

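In 3 of the 17 sets of 9 libraries tested for a junction share, 1 library lay far from the others by Dixon's criterion, which chance meets in about 1 of 20 sets. For Wnt5a, AKR/J d17 replicate 3 had 75% of its reads over the less used junction, 3 of 4 reads, where the next AKR/J library had 25% and the next d17 library 30%. For Rspo2, Cav1-null d15 replicate 1 had 100%, 2 of 2 reads, where the next d15 library had 33.3%.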

How the results depend on the processing

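No fold change of the 10 genes that was called turned its sign under any alternative run. Of their 964 fold changes under other settings, 917 kept their side of the threshold, as did 1108 of 1194 with 1 library left out. The number of genes called among the 10 moved by over 1.5 times in these cases. In the early phase of AKR/J it was 3, and 1 with library sizes alone, 5 without the filter on low counts, 5 in the model of 27 libraries, and 0 with both libraries at odds with their sex label left out. In the model of 27 libraries it was 1 in the late phase of Cav1-null, 1 in AKR/J against C57BL/6J on d15 and 1 in Cav1-null against C57BL/6J on d12. DESeq2 gave 5 in Cav1-null against C57BL/6J on d12 (Wnt3a, Wnt3, Wnt7b, Wnt8b and Rspo1) and 1 for the late change of Cav1-null. With the replicate number as a block, 0 of the 10 and 0 of all genes were called in the early phase of C57BL/6J, with 6 and 5654 at an unadjusted p under 0.05, and 2 of the 10 in that of AKR/J. The labels give no pairing by these numbers. The d15 minus d12 difference in the Wnt7b junction share, 10.3 points without the libraries at odds with their sex label, was then not called (8 and 7 libraries in place of 9 and 9). The cause of these shifts was not tested.

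With 1 library left out, the number called ranged from 1 to 5 (AKR/J), 0 to 6 (C57BL/6J) and 4 to 7 (Cav1-null) in the early phase, and from 2 to 5, 0 to 7 and 2 to 2 in the late phase. Against C57BL/6J it ranged from 0 to 3, 2 to 2 and 0 to 2 in AKR/J and from 0 to 0, 7 to 8 and 0 to 3 in Cav1-null on the 3 days, and for the change between days from 0 to 1, 0 to 0, 0 to 0 and 0 to 4.

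Library sizes alone shifted the median over all genes (log2) to 0.46 (AKR/J, early) and to -0.38 in AKR/J against C57BL/6J on d12. Counts over all genes also moved: DESeq2 called 4480 genes in place of 2850 in the early and 4095 in place of 2594 in the late phase of C57BL/6J, 1756 in place of 0 in Cav1-null on d12 and 1164 in place of 150 in AKR/J on d17. The model of 27 libraries called 829 in place of 5530 in the late phase of Cav1-null and 10960 in place of 5529 in AKR/J on d12. Levels under 1 CPM, as of Wnt3a on d17, and Rspo2 junction shares from under 10 reads are limited by depth.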

Other observations

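Of the 6 genes found in the RefSeq table of promoters (GRCm38.p6, 250 bases before to 50 after the start), none held CTTTGAT or CTTTGAA, the TCF/LEF motifs searched, on either strand, beside 3.73% and 5.14% of 32851 promoters. The promoter of Wnt3a had 86.3% G and C and that of Wnt8b 48.3%, beside a median of 52.7%.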
